A study of Mus musculus with 8 samples.

Results

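The extracellular matrix of skeletal muscle was described here through 45 genes that code for its proteins other than the collagen chains and for the enzymes, inhibitors, signals and receptors that build and remodel it. They form a list of gene names drawn up with earlier results of these data known, and all 45 were found once each among the 47643 genes of the table. RNA was sequenced from quadriceps muscle of 8 mice labelled as strain C57BL/6 and, by the study's methods, backcrossed to C57BL/6J, with 1 library per mouse: 4 were labelled Nup210-/- and 4 Nup210+/+. The Nup210-/- line was made by recombining the loxP-flanked exon 2 of Nup210 in the whole body with Hprt-driven Cre. No treatment was given to either group in the labels, and the age and sex of these mice are not given in the sources used here.

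Muscle fibres are each wrapped in a basement membrane of laminins, nidogens and perlecan, and lie in an interstitial matrix of collagen fibrils, fibronectin, elastic microfibrils and small leucine-rich proteoglycans. Most of the interstitial proteins are secreted by fibroblasts and fibro-adipogenic progenitors, while fibres, vessels and other cells contribute to the basement membrane. Collagen chains are hydroxylated and folded in the endoplasmic reticulum with the help of chaperones, trimmed outside the cell, crosslinked by oxidases of the lysyl oxidase family, and turned over by metalloproteinases under the control of their tissue inhibitors.

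Values are TPM, which are corrected for transcript length and brought to the same total in each library, and fold changes are differences of log2(scaled TPM + 1), libraries labelled Nup210-/- minus Nup210+/+. The scaling brings libraries to the same median level, and a pseudocount of 1 understates the change of genes at low TPM. Nup210 itself was at 9.54, 10.8, 11.9 and 8.81 TPM in the libraries labelled Nup210-/- and at 5.71, 10.1, 9.19 and 6.71 TPM in those labelled Nup210+/+. Its transcript was thus not lower under the knockout label (log2 fold change 0.44, SE 0.147, limma adjusted p = 0.231). A value for the whole gene does not show whether exon 2 was missing, and every direction below rests on the labels. For muscles of the Nup210-/- line, the study reported the knockout at the protein level, by immunoprecipitation and immunofluorescence. Depth is unknown for TPM, so the precision comes from the spread between mice. The 8 muscle fibre markers, led by Tnnt3, Acta1 and Ckm, summed to 90975 to 106412 TPM. A single library carried the transcripts of another cell type: 6 granulocyte precursor genes, among them Elane and Mpo, summed to 382 TPM in Nup210+/+ replicate 2 and to 0.31 to 2.12 TPM in the other libraries. Nup210+/+ replicate 3 had the highest sum of fibroblast, adipocyte, tendon and leukocyte markers, and values without each of these libraries are given where they bear on a result.

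The matrix genes were, with few exceptions, at lower levels in the libraries labelled Nup210-/-. The estimate was lower for 42 of the 45 genes (41 to 43 under other scalings) and higher for Lamb2, Agrn and Plod3, with a median log2 fold change of -0.31, against -0.01 over the 14229 genes tested. Summed over the 45 genes, expression was 1445, 1613, 1467 and 1448 TPM under the Nup210-/- label and 2033, 1807, 2646 and 1653 TPM under Nup210+/+, so the sums did not overlap. None of the 45 passed an adjusted p of 0.05 in limma in either direction, where 0.0633% of all genes passed as lower and 0.0492% as higher. At an unadjusted p of 0.05, 19 of the 45 (42.2%) were lower, against 7.18% of all genes, and 0 were higher, against 7.00% of all genes. In 13 of the 45 (28.9%) the 4 libraries labelled Nup210-/- all lay below the 4 labelled Nup210+/+ on scaled TPM, against 4.60% of all genes, and 0 of the 45 lay wholly above, against 4.78%. In bulk tissue, fewer cells of the types that make matrix and less RNA per cell cannot be told apart.

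**Figure D1:**
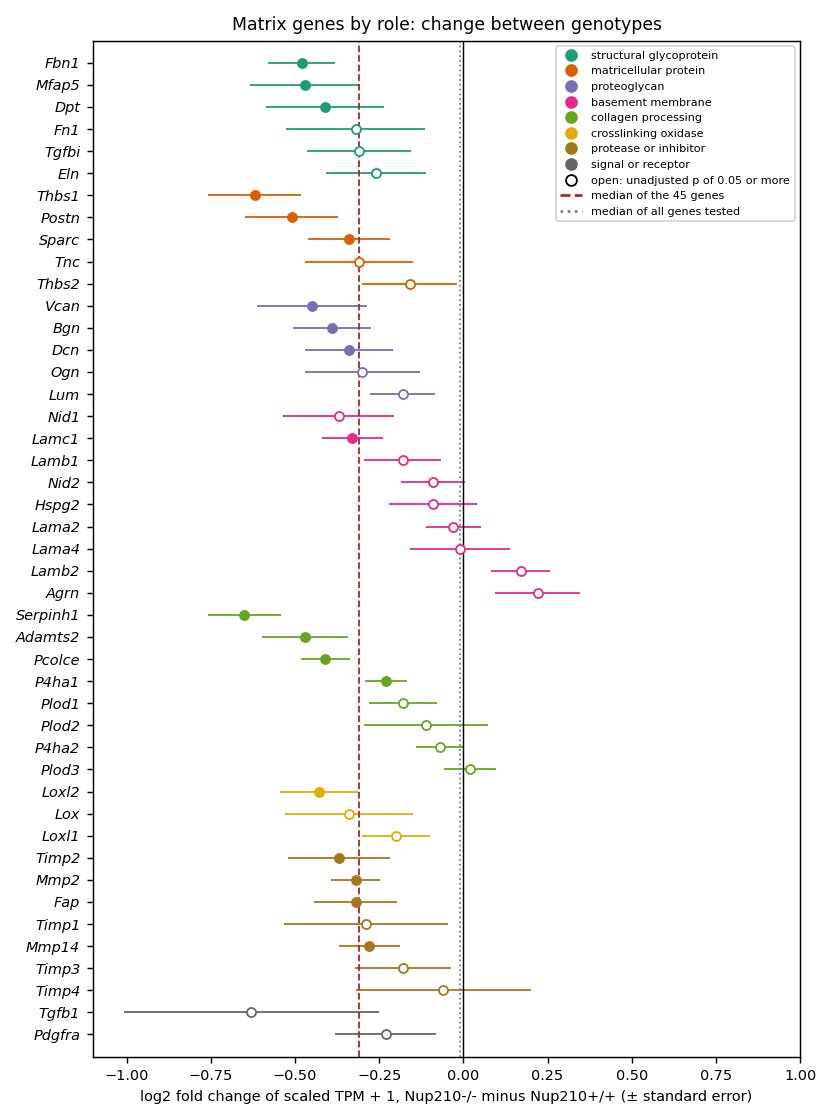
Log2 fold change of scaled TPM + 1, libraries labelled Nup210-/- minus Nup210+/+ (horizontal axis), for the 45 genes by role, with points at the limma estimate and bars of 1 standard error (n = 4 libraries per genotype). Filled points have an unadjusted p under 0.05: 19 genes, all lower. The dashed line is the median of the 45 genes at -0.31 and the dotted line the median of all genes tested at -0.01.

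Nup210+/+ replicate 3 held the highest scaled value for 25 of the 45 genes, where it was highest for 2247 of the 14229 genes tested (15.8%). Its median deviation from the 8-library mean over the 45 genes was 0.31 on the log2 scale, against 0.17, -0.01 and 0.01 for Nup210+/+ replicates 1, 2 and 4, and against -0.20 to -0.05 for the libraries labelled Nup210-/-. Without this library the median log2 fold change of the 45 genes was -0.21, with 39 lower and 6 higher, and 16 were lower at an unadjusted p of 0.05, against 6.41% of all genes. Without Nup210+/+ replicate 2 the median was -0.34 and 23 genes were lower at that level, against 6.74% of all genes. The spread between mice was also unequal: the coefficient of variation of the 45 genes had a median of 9.07% under the Nup210-/- label and 18.6% under Nup210+/+, against 11.6% and 14.6% over all genes tested. It was wider under Nup210+/+ for 35 of the 45 (77.8%), against 61.5% of all genes.

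**Figure D2:**
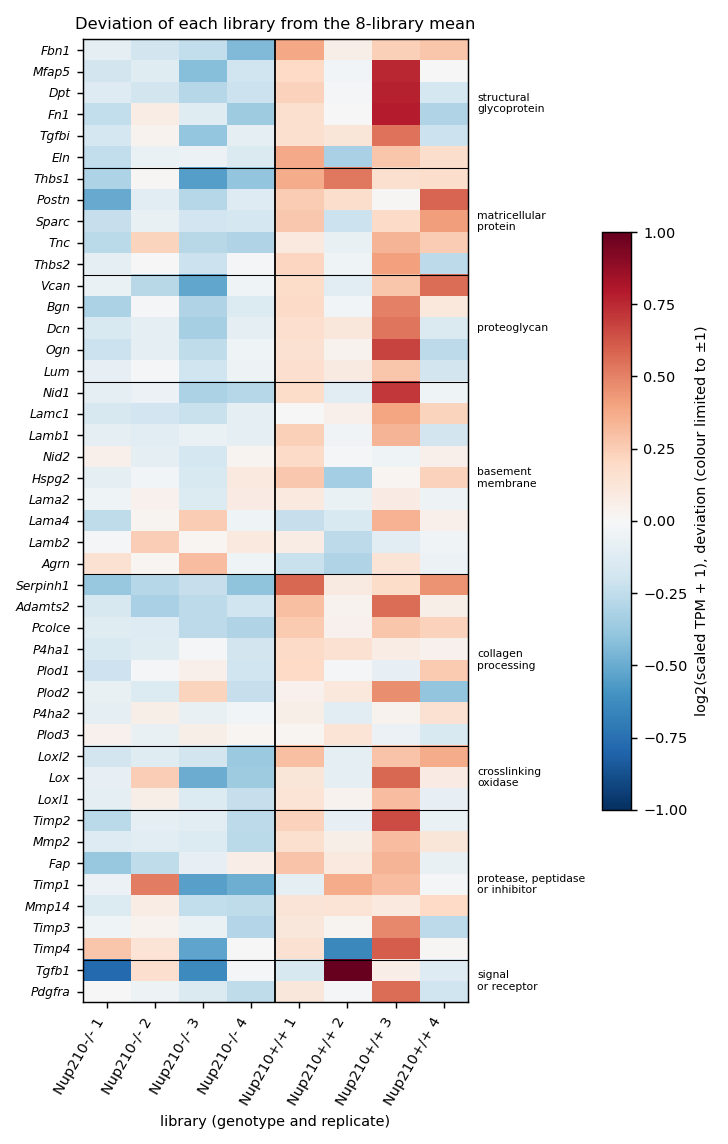
Deviation of log2(scaled TPM + 1) from the mean of the 8 libraries, with genes in rows by role and libraries in columns by genotype and replicate; red is above and blue below the mean, with colour limited to 1 in either direction. Nup210+/+ replicate 3 holds the highest value for 25 of the 45 genes, and the libraries labelled Nup210-/- have median deviations of -0.20 to -0.05.

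Collagen folding and trimming held the genes with the lowest p-values. Of the 8 genes of this role, 7 had lower estimates (median log2 fold change -0.21). In 4 of them (50.0%) the genotypes did not overlap, against 4.60% of all genes that were lower without overlap. Serpinh1, which codes for the collagen chaperone HSP47 of the endoplasmic reticulum, lies on chromosome 7 at 99345376 to 99353239 on the minus strand. It was at 46.36, 51.44, 54.41 and 44.98 TPM under the Nup210-/- label and at 98.51, 70.45, 81.84 and 83.64 TPM under Nup210+/+. Every Nup210+/+ library was above every library labelled Nup210-/-, and the means were 49.3 ± 4.40 and 83.6 ± 11.5 TPM (SD, n = 4). Its adjusted p of 0.0599 in limma was the lowest of the 45 genes and missed the threshold, at a log2 fold change of -0.65 (SE 0.107). The exact permutation test gave p = 0.0286 for Serpinh1 and for each of the other 12 genes without overlap. Any gene without overlap gets this value, the smallest that 4 against 4 libraries allow. It therefore restates the lack of overlap and adds nothing to it. Serpinh1 passed the threshold in 2 of the alternative analyses, with TPM as deposited (adjusted p = 0.0462) and with library weights (adjusted p = 0.0244). It missed the threshold in all the others. Its log2 fold change was -0.73 without Nup210+/+ replicate 2 (limma adjusted p = 0.0552) and -0.70 without replicate 3 (limma adjusted p = 0.0812).

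Pcolce codes for the procollagen C-endopeptidase enhancer, which speeds the removal of the C-propeptide, and lies on chromosome 5 at 137605103 to 137613784 on the minus strand. It was at 37.4, 38.9, 35.9 and 32.6 TPM under the Nup210-/- label and at 53.4, 46.1, 58.9 and 48.4 TPM under Nup210+/+. The genotypes did not overlap, at a log2 fold change of -0.41 (SE 0.0735, adjusted p = 0.0779), and with library weights the adjusted p was 0.0343. It was -0.46 without Nup210+/+ replicate 2 and -0.38 without replicate 3. Exons of Pcolce share bases with Fbxo24 on the same strand, so reads there could be divided between both genes. Adamts2, the protease that removes the N-propeptide of procollagens, was at 3.53, 3.17, 3.42 and 3.37 TPM against 5.65, 4.56, 7.61 and 4.3 TPM. Its libraries labelled Nup210-/- lay close together and below all others (log2 fold change -0.47, SE 0.127, adjusted p = 0.170). P4ha1, the main catalytic subunit of prolyl 4-hydroxylase, was at 35.1, 37.2, 41.1 and 33.9 TPM against 48.6, 47.6, 48.8 and 40.6 TPM. On TPM as deposited the lowest Nup210+/+ library, replicate 4, lay just under the highest library labelled Nup210-/-, and after scaling the genotypes did not overlap (log2 fold change -0.23, SE 0.0621, adjusted p = 0.170).

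The other hydroxylases differed less. P4ha2, the alternative prolyl 4-hydroxylase subunit, had means of 20.5 ± 1.34 and 23.0 ± 1.68 TPM. Among the lysyl hydroxylases, Plod1 was at 13.5 ± 1.76 against 16.4 ± 1.17 TPM, Plod2, which modifies telopeptides, at 2.87 ± 0.630 against 3.5 ± 1.32 TPM, and Plod3 at 13.6 ± 0.697 against 14.4 ± 1.76 TPM. For these 4 enzymes the log2 fold changes lay between -0.18 and 0.02 and the genotypes overlapped. The estimate for Plod3 was 0.02 after scaling and -0.07 with TPM as deposited, so it had no stable direction, and that for Plod2 was -0.11 with all libraries and 0.03 without Nup210+/+ replicate 3.

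The sequences before the RefSeq start are printed for Serpinh1 and Pcolce, the genes with the lowest p among those with lower estimates, and for Lamb2, the gene with the lowest p among those with higher estimates, since they are the extremes of the 45. They are from RefSeq on GRCm38.p6, given 5′ to 3′ on the strand of the gene, and stop where an annotated exon begins. The RefSeq start of Pcolce lies inside the longer gene that GENCODE annotates, so its stretch is not the one before the GENCODE start. Capitals mark the motif GGGCGG, a GC box.
Serpinh1, chr7:99353240-99353489, minus strand: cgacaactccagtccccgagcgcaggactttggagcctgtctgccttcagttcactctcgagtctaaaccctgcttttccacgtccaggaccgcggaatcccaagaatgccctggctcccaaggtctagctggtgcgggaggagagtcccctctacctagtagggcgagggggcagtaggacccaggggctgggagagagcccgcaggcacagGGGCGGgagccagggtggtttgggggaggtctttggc
Pcolce, chr5:137611488-137611654, minus strand: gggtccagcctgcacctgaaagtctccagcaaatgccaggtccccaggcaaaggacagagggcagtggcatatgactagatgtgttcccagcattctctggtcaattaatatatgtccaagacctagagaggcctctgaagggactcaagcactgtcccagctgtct
Lamb2, chr9:108479612-108479735, plus strand: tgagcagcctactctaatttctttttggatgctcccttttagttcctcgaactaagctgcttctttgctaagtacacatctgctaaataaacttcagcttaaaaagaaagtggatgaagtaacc
RefSeq promoters of 250 bases before and 50 bases after the start matched 30 of the 45 genes. The GC box, which was added to the search after the sequences were seen, was present on either strand in 21 of these 30 (70%), against 35.9% of all 27025 promoters. It lies 37 bases before the start of Serpinh1 and, inside an exon annotated upstream, 60 bases before the start of Pcolce, and the Lamb2 promoter held none. TATAAA on either strand was found in 6 of the 30 (20%, against 14.2% of all promoters), either GAANNTTC or TTCNNGAA, the paired units of a heat shock element, in 5 (16.7%, against 15.1%), and the CArG box in 1, that of Lama2 (3.33%, against 1.57%). Neither heat shock motif was in the window of Serpinh1. These matches describe the letters of the windows only.

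The structural glycoproteins were lower in all 6 estimates, with a median log2 fold change of -0.37. Fbn1, which codes for fibrillin-1, the backbone of microfibrils, was at 9.99, 9.73, 9.42 and 7.58 TPM under the Nup210-/- label and at 15.6, 12.3, 15.2 and 13.3 TPM under Nup210+/+. Its genotypes did not overlap (log2 fold change -0.48, SE 0.0990, adjusted p = 0.111), and the estimate was also -0.48 without Nup210+/+ replicate 3. Mfap5, a microfibril-associated glycoprotein, was at 34.0, 37.2, 30.4 and 33.5 TPM against 48.5, 41.9, 78.5 and 39.4 TPM. The groups were apart, but Nup210+/+ replicate 3 was far above the others, and the log2 fold change moved from -0.47 (SE 0.163, adjusted p = 0.252) to -0.29 without it. Dpt, or dermatopontin, which binds decorin and collagen fibrils, was the most abundant of this role at 92.9, 93.0, 88.1 and 86.5 TPM against 129.5, 111, 207 and 90.9 TPM. The lowest Nup210+/+ library lay within the Nup210-/- range, and the log2 fold change of -0.41 (SE 0.175, adjusted p = 0.337) was -0.22 without Nup210+/+ replicate 3.

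Fibronectin, elastin and the TGF-beta-induced protein overlapped between genotypes. Fn1 was at 32.7 ± 5.19 and 46.2 ± 19.3 TPM, where Nup210+/+ replicate 3 alone stood at 73.7 TPM, and its log2 fold change of -0.32 was -0.11 without that library. Tgfbi was at 21.6 ± 2.68 and 29.6 ± 8.63 TPM, with a log2 fold change of -0.31 that was -0.18 without replicate 3. Eln was at 5.03 ± 0.509 and 6.74 ± 1.67 TPM, and here Nup210+/+ replicate 2 was the low library at 4.55 TPM: the log2 fold change of -0.26 was -0.40 without it.

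The matricellular proteins, which signal to cells more than they bear load, were likewise lower in all 5 estimates (median log2 fold change -0.34). Thbs1, or thrombospondin-1, an activator of latent TGF-beta, was at 3.46, 4.73, 2.94 and 3.16 TPM under the Nup210-/- label and at 6.64, 7.56, 6.12 and 5.27 TPM under Nup210+/+. Its log2 fold change of -0.62 (SE 0.138, adjusted p = 0.122) was, with those of Serpinh1 and Tgfb1, among the 3 lowest. Postn, or periostin, which is made by activated fibroblasts, was at 4.29, 6.2, 5.48 and 5.77 TPM against 8.61, 8.15, 7.76 and 10.3 TPM. Its genotypes did not overlap either, and it was highest in Nup210+/+ replicate 4, not replicate 3 (log2 fold change -0.51, SE 0.138, adjusted p = 0.175). Sparc, or osteonectin, a collagen-binding glycoprotein, was at 135, 157, 147 and 139 TPM against 208, 149.7, 215 and 214 TPM. Nup210+/+ replicate 2 lay among the libraries labelled Nup210-/- while the other 3 stood together above them. The log2 fold change was -0.34 (SE 0.121, adjusted p = 0.264) and was -0.46 without replicate 2 (adjusted p = 0.0588). Tnc, or tenascin-C, was at 1.28 ± 0.449 and 1.93 ± 0.432 TPM and Thbs2 at 6.93 ± 0.449 and 8.63 ± 2.48 TPM. Both overlapped, with log2 fold changes of -0.31 and -0.16, the latter -0.05 without Nup210+/+ replicate 3.

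The proteoglycans were the most abundant role, led by decorin, and all 5 estimates were lower (median log2 fold change -0.34) although none was free of overlap on scaled TPM. Dcn, which coats collagen fibrils and regulates their diameter, was at 445, 485, 418 and 456 TPM under the Nup210-/- label and at 604, 588, 849.9 and 451 TPM under Nup210+/+. Replicate 4 of Nup210+/+ lay inside the Nup210-/- range and replicate 3 far above it (log2 fold change -0.34, SE 0.130, adjusted p = 0.291; -0.21 without replicate 3). Bgn, or biglycan, was at 42.8, 55.2, 46.1 and 48.1 TPM against 66.8, 57.5, 90.5 and 58.1 TPM. It was apart on TPM as deposited and overlapped after scaling (log2 fold change -0.39, SE 0.117, adjusted p = 0.203). Vcan, or versican, a large hyaluronan-binding proteoglycan of provisional matrix, was at 3.04, 2.61, 2.09 and 3.08 TPM against 4.12, 3.21, 4.87 and 5.24 TPM. It too was apart on TPM alone (log2 fold change -0.45, SE 0.163, adjusted p = 0.264). Lumican (Lum) at 44.2 ± 2.18 and 54.2 ± 10.5 TPM and osteoglycin (Ogn) at 58.7 ± 3.72 and 80.9 ± 28.9 TPM overlapped. Their log2 fold changes of -0.18 and -0.30 were -0.11 and -0.13 without Nup210+/+ replicate 3.

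The basement membrane genes stood closest to the other genes, with a median log2 fold change of -0.09, and held 2 of the 3 higher estimates. Lamc1, the laminin gamma-1 chain shared by most laminins, had the lowest p-value of this role, at 25.8, 26.3, 26.1 and 26.7 TPM under the Nup210-/- label and 31.4, 32.8, 45.5 and 34.2 TPM under Nup210+/+. It was the only gene of this role without overlap on scaled TPM, and the libraries labelled Nup210-/- differed by less than 1 TPM (log2 fold change -0.33, SE 0.0899, adjusted p = 0.172). Lamb2, the laminin beta-2 chain concentrated at neuromuscular junctions, was at 43.5, 54.8, 47.5 and 46.8 TPM against 50.8, 40.2, 48.5 and 43.5 TPM. The groups overlapped, with a log2 fold change of 0.17 (SE 0.0877, adjusted p = 0.421). Agrn, which codes for agrin, the organizer of acetylcholine receptor clusters, was at 3.88 ± 0.629 and 3.42 ± 0.787 TPM, a log2 fold change of 0.22. Without Nup210+/+ replicate 3 it was 0.31 with an adjusted p of 0.336, and the genotypes then no longer overlapped on scaled TPM. The same held for Lamb2 without Nup210+/+ replicate 1 (0.22, adjusted p = 0.376).

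Lama2, the alpha-2 chain of muscle laminin whose loss causes congenital muscular dystrophy, was at 7.10 ± 0.435 and 7.80 ± 0.933 TPM, with a log2 fold change of -0.03. Lama4, a chain of vessel laminins, was at 10.5 ± 2.0 and 11.4 ± 2.93 TPM, with a log2 fold change of -0.01. For both the sign changed when some libraries were left out, and for Lama4 also with upper-quartile scaling. Lamb1 was at 9.20 ± 0.382 and 11.5 ± 2.74 TPM (-0.18, and -0.09 without Nup210+/+ replicate 3). The nidogens, which link laminin to collagen IV, had unlike estimates with all libraries, and closer ones without Nup210+/+ replicate 3. Nid1 was at 26.6 ± 2.60 and 38.4 ± 13.4 TPM (log2 fold change -0.37, and -0.20 without replicate 3). Nid2 was at 3.65 ± 0.219 and 4.23 ± 0.370 TPM (-0.09, and -0.12 without replicate 3), apart on TPM as deposited and overlapping after scaling. Hspg2, which codes for perlecan, was at 30.7 ± 1.89 and 35.4 ± 6.10 TPM. Its log2 fold change of -0.09 was -0.22 without Nup210+/+ replicate 2, its lowest library at 26.6 TPM.

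All 3 lysyl oxidase genes had lower estimates. Loxl2 was at 5.05, 5.58, 5.36 and 4.3 TPM under the Nup210-/- label and at 8.11, 5.96, 8.73 and 7.96 TPM under Nup210+/+. It did not overlap, with Nup210+/+ replicate 2 nearest to the other group (log2 fold change -0.43, SE 0.116, adjusted p = 0.177), and without that library the log2 fold change was -0.53 with an adjusted p of 0.0805. Loxl1, which acts mainly on elastin, was the most abundant at 9, 10.6, 9.25 and 8.02 TPM against 11.7, 10.9, 14.5 and 9.15 TPM. It overlapped at Nup210+/+ replicate 4, and after scaling at replicate 2 as well. The log2 fold change was -0.20 (SE 0.102, adjusted p = 0.406) and was -0.13 without Nup210+/+ replicate 3. Lox, the founding member of the family, was at 4.98 ± 1.42 and 7.06 ± 2.16 TPM, with a log2 fold change of -0.34 that was -0.21 without Nup210+/+ replicate 3.

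Proteases and their inhibitors were lower together, in all 7 estimates (median log2 fold change -0.29). Mmp2, or gelatinase A, was at 22.1, 23.4, 23.3 and 19.7 TPM under the Nup210-/- label and at 29.6, 27.7, 35.9 and 26.7 TPM under Nup210+/+. Mmp14, the membrane-bound metalloproteinase that activates pro-MMP2, was at 6.07, 7.5, 5.88 and 5.47 TPM against 8.11, 8.23, 8.69 and 7.96 TPM. Timp2, an inhibitor that is also part of that activation complex and the most abundant gene of this role, was at 56.3, 66.5, 67.3 and 56.3 TPM against 87.0, 70.7, 128 and 65.9 TPM. None of these 3 genes overlapped on scaled TPM, although Timp2 did on TPM as deposited, through Nup210+/+ replicate 4. The log2 fold changes were -0.32 (SE 0.0722, adjusted p = 0.124) for Mmp2, -0.28 (SE 0.0906, adjusted p = 0.222) for Mmp14 and -0.37 (SE 0.151, adjusted p = 0.316) for Timp2, the last -0.21 without Nup210+/+ replicate 3. Fap, a serine protease of the fibroblast surface, was at 7.73, 8.91, 10.3 and 10.8 TPM against 13.9, 12.2, 15.8 and 9.87 TPM. Replicate 4 of Nup210+/+ was within the other group (log2 fold change -0.32, SE 0.124, adjusted p = 0.288). The other inhibitors overlapped: Timp1 was at 0.935 ± 0.705 and 1.37 ± 0.442 TPM (log2 fold change -0.29), Timp3 at 50.2 ± 5.92 and 62.4 ± 17.8 TPM (-0.18) and Timp4 at 9.07 ± 2.09 and 10.6 ± 4.53 TPM (-0.06). Without Nup210+/+ replicate 3, Timp3 was at -0.05 and Timp4 at 0.13.

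**Figure D3:**
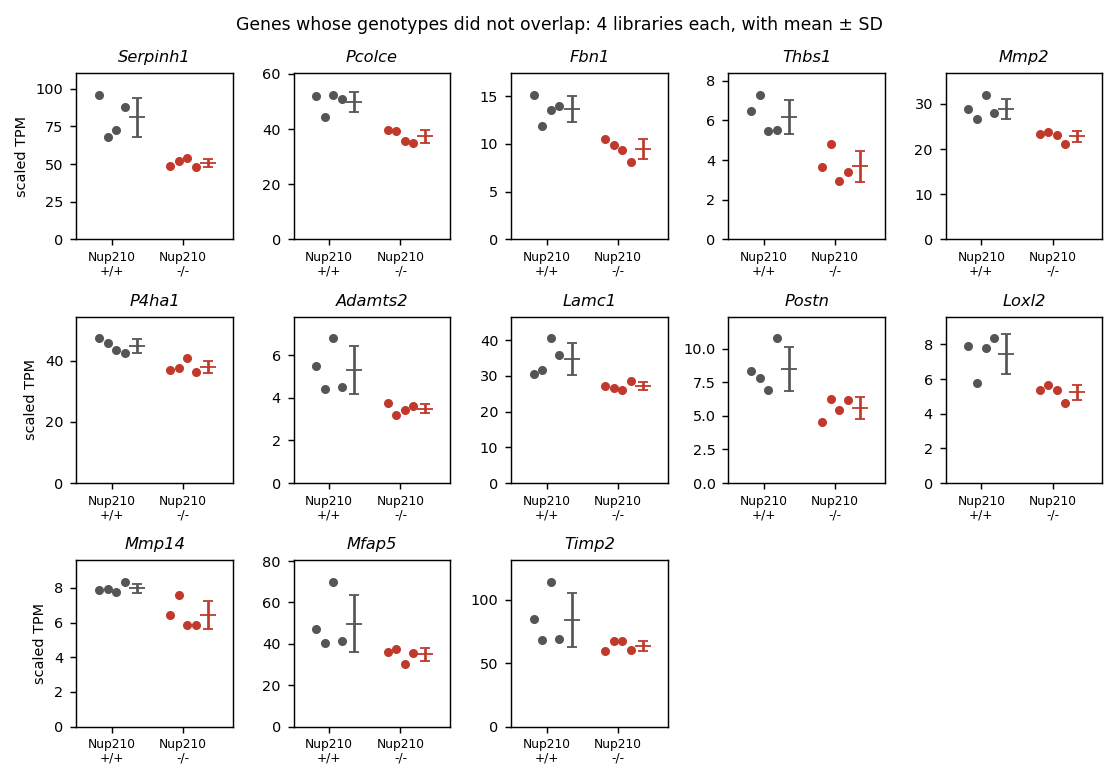
Scaled TPM in each library (vertical axes, from 0) of the 13 genes whose genotypes did not overlap, in order of p-value, with the mean and SD of 4 libraries beside the points; grey is Nup210+/+ and red the libraries labelled Nup210-/-. The lowest grey point is above the highest red one in every panel, narrowly so in Loxl2, Mmp14 and Timp2.

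Both signalling genes overlapped between genotypes. Tgfb1, the ligand that drives matrix synthesis in fibroblasts, was at 3.89 ± 1.53 and 7.80 ± 5.85 TPM. Nup210+/+ replicate 2, the library with granulocyte precursor transcripts, stood at 16.5 TPM and the other 3 of its group at 4.28 to 5.93 TPM, and the log2 fold change of -0.63 (SE 0.379, adjusted p = 0.472) was -0.24 without it. Pdgfra, the receptor that marks fibro-adipogenic progenitors, was at 10.3, 10.3, 9.77 and 8.39 TPM under the Nup210-/- label and at 12.2, 11.1, 18.5 and 8.92 TPM under Nup210+/+. It overlapped through Nup210+/+ replicate 4, and after scaling through replicate 2 as well. The log2 fold change was -0.23 (SE 0.150, adjusted p = 0.516) and was -0.08 without Nup210+/+ replicate 3.

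Other genes of the same pathways were examined as lists, whose counts at an unadjusted p of 0.05 are to be read beside the 7.18% of all genes that were lower and the 7.00% that were higher. The 15 collagen genes, the substrate of the enzymes above, were lower in all 15 estimates with a median log2 fold change of -0.43, and 12 of them (80.0%) at an unadjusted p of 0.05. None passed the adjusted threshold: Col6a1 came closest (-0.46, adjusted p = 0.0540), Col12a1 had the lowest log2 fold change (-0.58) and Col4a2 the highest (-0.09). Of 17 TGF-beta pathway genes tested, 7 were lower and 10 higher (median 0.02), and the receptor Tgfbr2 had the lowest log2 fold change at -0.40. At an unadjusted p of 0.05, 1 (5.88%) was lower and 3 were higher, none past an adjusted p of 0.05. Among 22 other glycoproteins and proteoglycans, 18 were lower (median -0.27, from Ecm1 at -0.58 to Lama5 at 0.37), 7 of them (31.8% of the list) and 0 of the higher ones at an unadjusted p of 0.05. Among 11 other collagen-modifying enzymes, 9 were lower (median -0.30, from Crtap at -0.46 to P3h1 at 0.19), 5 of them (45.5% of the list) at that level. Among 8 other matrix proteases, 6 were lower (median -0.11, from Adamts1 at -0.51 to Mmp11 at 0.32), 2 of them (25.0% of the list) at that level. No gene of these 3 lists passed an adjusted p of 0.05. Without Nup210+/+ replicate 3, 6.41% of all genes were lower at an unadjusted p of 0.05. The median of the collagens was then -0.37, with 13 of 15 lower at that level. Those of the last 3 lists were -0.14, -0.24 and -0.05, with 3 of 22, 2 of 11 and 2 of 8 genes.

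Tendon, leukocyte and most fibroblast markers also had lower estimates, while muscle fibre markers had higher estimates. The summed TPM overlapped between genotypes for the fibroblast and the tendon markers, and did not for the leukocyte markers. At an unadjusted p of 0.05 in limma, 7.18% of all genes were lower and 7.00% were higher. Of 10 fibroblast and fibro-adipogenic progenitor markers, 9 had lower estimates (median log2 fold change -0.22), 2 of them, Clec3b and Cxcl14, at an unadjusted p of 0.05, and they summed to 870 to 978 TPM under the Nup210-/- label and 838 to 1696 TPM under Nup210+/+. All 9 tendon markers were lower (median -0.59), 7 at an unadjusted p of 0.05, led by Comp at -0.98, with sums of 98.9 to 161 against 142 to 246 TPM. All 8 tested leukocyte markers were lower (median -0.59), 7 at an unadjusted p of 0.05. Cd52 was at 2.88 to 3.37 against 5.39 to 8.62 TPM and passed an adjusted p of 0.05 (log2 fold change -0.81, adjusted p = 0.0490), but not without Nup210+/+ replicate 2 (adjusted p = 0.0552) or replicate 3 (adjusted p = 0.0521). Leukocyte sums were 219 to 241 against 249 to 492 TPM, and the T and B cell markers Cd3e and Cd79a were at most at 0.38 TPM in any library. The 8 muscle fibre markers all had higher estimates (median 0.18), 3 of them at an unadjusted p of 0.05. The 6 granulocyte precursor genes had lower estimates with 0 at an unadjusted p of 0.05, and all 6 were at 0 in at least 1 library.

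The remaining marker lists differed less between genotypes. Endothelial markers were lower in 4 of 6 (median -0.15), with Tek at an unadjusted p of 0.05, mural markers in 4 of 5 (median -0.02), with Acta2 at that level, Schwann cell markers in 2 of 4 (median -0.03) and adipocyte markers in 5 of 5 (median -0.15), with none at that level in the last pair. Without Nup210+/+ replicate 3 the medians were -0.14 for fibroblast, -0.55 for tendon, -0.43 for leukocyte, 0.12 for muscle fibre and 0.11 for adipocyte markers. Without Nup210+/+ replicate 2 they were, in the same order, -0.22, -0.72, -0.46, 0.20 and -0.26. Relative to the mean of the 8 libraries, Nup210+/+ replicate 3 held 1.35 times the level of the 45 matrix genes, 1.42 times that of the fibroblast markers, 1.52 times that of the leukocyte markers, 1.65 times that of the adipocyte markers and 0.821 times that of the muscle fibre markers. The part of these cell types in the differences of the matrix genes was not tested.

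**Figure D4:**
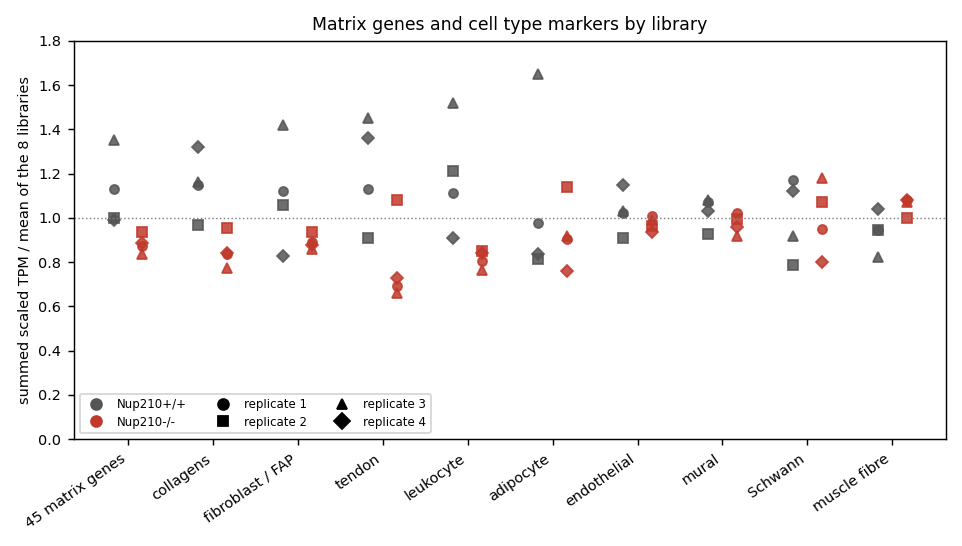
Summed scaled TPM of the 45 matrix genes, 15 collagen genes and 8 marker lists in each library, divided by the mean of the 8 libraries (vertical axis); grey is Nup210+/+, red the libraries labelled Nup210-/-, and symbols give the replicate. The matrix genes lie at 0.836 to 0.935 in the libraries labelled Nup210-/- and at 0.991 to 1.35 in those labelled Nup210+/+, where the highest is replicate 3, also highest for fibroblast, tendon, leukocyte and adipocyte markers.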

How the data were processed

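Polyadenylated RNA of 8 quadriceps muscles, 4 labelled Nup210-/- and 4 Nup210+/+, was made into directional libraries that were sequenced from one end. The authors trimmed reads with cutadapt 2.3, aligned them to mm10 with STAR 2.7.0d and estimated expression with RSEM 1.3.1 using Ensembl annotations, and the values they deposited are TPM per gene and library, with replicates not pooled. Whether RSEM used the strand is not given in the sources used here, and exons of several of the 45 genes (Fbn1, Thbs1 and Loxl2 among them) overlap a gene on the other strand. TPM hold no depth, so the DESeq2 test that the authors ran on estimated counts was not run. By that test the study reported deregulated genes, more of them lower than higher, with enriched cell adhesion, cytoskeletal and immune pathways. Counts past a threshold here are those of limma on TPM and can differ from that test. Which of the 45 genes passed it is not reported here. Replicates are separate mice by the protocol in the labels.

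Libraries were brought to a common scale by the median of ratios, taken over the 15225 genes detected in all 8, and values were used as log2(scaled TPM + 1). A gene entered the fit if its TPM averaged 0.5 or more, which left 14229. The fit was made by limma 3.58.1 in R 4.3.3, with genotype as the only term and an eBayes trend, and p-values were adjusted over all 14229 genes by Benjamini-Hochberg. The fit was also run on simulated data with independent noise of equal spread in both genotypes. That simulation holds neither the unequal spread nor the library-wide deviations found here, so it does not test the fit under them. A two-sided exact permutation test over the 70 labelings was added for single genes. Each of these choices was replaced in turn: the pseudocount by 0.1 or 0.5, the filter by any TPM above 0 or by an average of 1, the scaling by none (TPM as deposited), by the upper quartile or by one without mitochondrial genes and the 20 most abundant genes, and the fit by one without trend, a robust one, one with library weights or one with the replicate number as a block. Each library was also left out. Of genes that share a name, the identifier to which the reference gives that symbol was kept (Ltbp4 and Itgam).

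All 45 genes were named. Values of every library are given for genes with an unadjusted p under 0.05, without overlap, or with the highest mean TPM of their role, and from each other list of matrix genes the lowest and highest fold changes are given, except that the highest of the TGF-beta list is not reported here. Clec3b, Cxcl14, Comp, Tek, Acta2 and other markers were named after their values were seen. As the 45 genes and all lists were chosen with earlier results of these data known, no test over a list was made. Positions and exons are from GENCODE M21 on GRCm38. Figures were drawn with matplotlib 3.10.9.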

Additional observations from a re-analysis of the deposited data

Results flagged for a closer look

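Of 90 sets of 4 libraries (45 genes in 2 genotypes), 4 held a library far from the other 3 by Dixon's criterion, where chance gives about 1 in 20. Tnc was at 1.95 TPM in Nup210-/- replicate 2 and at 1 to 1.11 TPM in the other 3. Sparc was at 149.65 TPM in Nup210+/+ replicate 2 and at 207.79 to 215.04 TPM in the others, and Tgfb1 was at 16.51 TPM in the same library and at 4.28 to 5.93 TPM in the others. P4ha1 was at 40.61 TPM in Nup210+/+ replicate 4 and at 47.61 to 48.79 TPM in the others.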

How the results depend on the processing

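The median log2 fold change of the 45 genes was negative in every alternative, from -0.40 with TPM as deposited (where the median of all genes was -0.08) to -0.21 without Nup210+/+ replicate 3. The number lower at an unadjusted p of 0.05 ranged from 14 to 27 when a library was left out, and the 27 (60%) came without Nup210+/+ replicate 4, where 9.51% of all genes were lower at that level. The 14 (31.1%) came without Nup210-/- replicate 1, Nup210-/- replicate 3 or Nup210+/+ replicate 1, against 5.58%, 5.82% and 6.37% of all genes. The number past an adjusted p of 0.05 was 1 with TPM as deposited (Serpinh1), 2 with library weights (Serpinh1 and Pcolce) and 0 whenever a library was left out. Those free of overlap and lower numbered 13 in the main analysis (28.9%, against 4.60% of all genes), 10 with upper-quartile scaling and 14 with TPM as deposited. The shares of all genes under the last pair of scalings are not reported here, so those counts cannot be read against them. When a library was left out, the genes free of overlap and lower numbered 13 to 20. The 13 (28.9%) stood against 6.13% to 6.27% of all genes, and the 20 (44.4%), without Nup210+/+ replicate 4, against 8.91%. Those higher, at an unadjusted p of 0.05 or free of overlap, then numbered 0 to 1: Lamb2 without Nup210+/+ replicate 1 and Agrn without replicate 3.

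Over all genes, 9 were lower and 7 higher at an adjusted p of 0.05. These counts were 1 and 0 with any TPM above 0, 0 and 0 with upper-quartile scaling or without the trend, and 41 and 43 with library weights. With a pseudocount of 0.1, 11 were higher, with a mean TPM of at least 1, 14, and with TPM as deposited, 2. Leaving out a library gave 0 to 8 lower and 0 to 2 higher. At an unadjusted p of 0.05, limma called 1575 to 2681 genes in these alternatives. The cause was not tested.

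The groups share replicate numbers, but same-numbered libraries did not deviate together (correlations of -0.0329 to 0.0857), and 2 of the 8 libraries correlated best with the library of their own number in the other genotype. With the replicate block in limma, 0 genes passed in either direction. At an unadjusted p of 0.05 this fit called 1850 of the 14229 genes, both directions together, and 17 of the 45 genes as lower. The share of all genes that were lower in this fit is not reported here.

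A few estimates near 0 changed sign. Lama4 was at 0.01 with upper-quartile scaling and 0.04 with library weights, and Plod3 at -0.07 with TPM as deposited. With a library left out, Lama2 ranged from -0.06 to 0.01, Lama4 from -0.10 to 0.11, Plod2 from -0.26 to 0.03, Plod3 from -0.02 to 0.08 and Timp4 from -0.28 to 0.13. Unknown depth and 4 mice per group limit what could be detected.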
